A study of Homo sapiens with 4 samples.

Results

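Protein phosphatase 1 is a serine and threonine phosphatase that is described here through 8 genes, the catalytic subunits PPP1CA, PPP1CB and PPP1CC and the regulatory subunits PPP1R2, PPP1R7, PPP1R8, PPP1R10 and PPP1R12A. Members were taken by gene symbol in the authors' deposited table, where they had 19 of its 42450 probe sets (8 of 20227 genes). Of these, 14 probe sets of 7 genes also had a level on each array, and PPP1R8 had ratios only. The set was chosen by the ratios of PPP1CB, low with overexpression and the highest with the inhibitor among genes above the array median, so the values of PPP1CB in both comparisons are a description only. The remaining members were added as the enzyme's other catalytic subunits and its regulators.

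HCT116 is an established human colon cancer cell line. Cells received the plasmid pcDNA3.1 (vector), pcDNA3.1 carrying pri-miR663a (overexpression), a single-stranded scrambled RNA or a single-stranded inhibitor of miR663a, with 1 Affymetrix array for each of the 4 groups. The design sought genes that miR663a lowers and its inhibitor raises. No transfection was repeated, so the spread between arrays of a group is unknown, no test or p-value was computed, and the number of arrays limits the precision. All values below are log2 signals, log2 differences between arrays or, where said, linear ratios.

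The arrays had median log2 values between 4.12 and 4.19 over 16381 probe sets. The source, description and genotype labels name the inhibitor array as used here, as does the header of the authors' deposited table, while the titles of those arrays name them in reverse. If the titles held, every inhibitor difference below would change its sign, and on PPP1CB the scrambled RNA array would be the highest. The epithelial markers EPCAM, KRT18, KRT19, CDH1 and CDX2 lay above the median on all arrays, and KRT8, the sixth on the list, had no level. The leukocyte marker PTPRC lay between 2.04 and 2.34, below the median. Of the lists for other cell types, 3 of 5 leukocyte, 1 of 3 endothelial and 2 of 5 fibroblast genes lay above the median on all arrays. The log2 of their summed signals ran from 6.72 to 7.10, from 5.77 to 6.02 and from 7.99 to 8.40 over the 4 arrays, and that of the epithelial genes from 14.38 to 14.45. Control probe sets at the 5′ end, middle and 3′ end of GAPDH and ACTB had ratios between 0.947 and 1.07 with overexpression and between 0.932 and 1.04 with the inhibitor. The part of these controls and markers in the results was not tested.

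A catalytic subunit of protein phosphatase 1 does not act alone in cells. It binds one of many regulatory subunits through short docking motifs, and the partner sets the place, the substrates and the activity of the enzyme. PPP1CB is the catalytic subunit that joins PPP1R12A, also called MYPT1, to form myosin phosphatase, which removes phosphate from myosin light chains and relaxes the actomyosin of non-muscle and smooth muscle cells. A microRNA pairs with its targets mainly through its seed near the 5′ end and lowers their RNA or their translation.

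The mature microRNA that the plasmid was built to raise is shown because every comparison turns on it. It is credited to RefSeq (GRCh38.p14, chromosome 20, 26208243 to 26208264, minus strand), and miR-663b (chromosome 2, 132256970 to 132256991, minus strand) is set beside it. Capitals mark bases 2 to 8, the seed.
hsa-miR-663a: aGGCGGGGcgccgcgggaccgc
hsa-miR-663b: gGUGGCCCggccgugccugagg
The seeds differ in spite of the shared name. In miR-663a 20 of 22 bases are G or C, against 18 of 22 in miR-663b.

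PPP1CB was lower with overexpression and higher with the inhibitor on all 4 of its probe sets. The probe set with the brightest signal, 201407_s_at, is listed on chromosome 2 from 28974732 to 29025803 in the authors' deposited table, which names no genome build. Its log2 value was 10.11 on the vector array, 9.37 on the overexpression array, 9.40 on the scrambled RNA array and 10.59 on the inhibitor array. The overexpression and scrambled RNA arrays were thus nearly level, the vector array stood above them and the inhibitor array was highest. These values gave a ratio of 0.596 for overexpression over vector (1.68-fold lower) and of 2.28 for inhibitor over scrambled RNA. Less PPP1CB RNA per cell and fewer cells that express it cannot be told apart in RNA from a whole culture.

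The scrambled RNA array was as low as the overexpression array on this probe set, so the size of the inhibitor ratio depends on the control it is set against. The inhibitor array lay 1.19 above the scrambled RNA array and 0.48 above the vector array, and scrambled RNA minus vector was -0.71. The last pair sets an RNA transfection against a plasmid transfection. The scrambled RNA array enters both the inhibitor ratio and this difference. Of the 5507 genes above the median on both of these arrays, 1.92% were at least 1.5-fold lower with scrambled RNA than with vector.

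The second probe set, 201408_at, has the same listed span and gave another pattern of sizes. Its values were 8.16 with vector, 7.47 with overexpression, 8.05 with scrambled RNA and 8.30 with the inhibitor. Here the overexpression array alone stood low, and its difference from the scrambled RNA array was -0.59. The ratios were 0.618 with overexpression, close to that of the first probe set, and 1.18 with the inhibitor, far smaller than 2.28.

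The third, 201409_s_at, is listed from 28974732 to 29024515 and had values of 8.96, 8.56, 8.67 and 9.07 with vector, overexpression, scrambled RNA and inhibitor. Its overexpression ratio of 0.757 was nearer to 1 than those of the first 2, and its inhibitor ratio of 1.32 lay between theirs. The fourth, 228222_at, is listed on a short stretch of 501 bases (29023088 to 29023588) on the minus strand, while the other 3 are listed on the plus strand. It had no level, and its ratios were 0.752 with overexpression and 1.15 with the inhibitor. Whether this probe set reads PPP1CB or a transcript from the opposite strand was not examined.

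The arrays fell in the same order on all 3 PPP1CB probe sets with levels, with the inhibitor highest, then vector, scrambled RNA and overexpression. Of 7736 probe sets above the median on all 4 arrays, 7.87% had this order. No probe set of another member did. The probe sets of a gene read the same 4 RNA samples, so they repeat the measurement and not the transfection. The authors' deposited table holds 1383 genes with 4 probe sets. In 2.10% of these genes all 4 were below a ratio of 1 with overexpression and above 1 with the inhibitor, as in PPP1CB, which was chosen for this pattern.

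The probe sets of PPP1CB were further apart with the inhibitor than with overexpression. With overexpression their log2 ratios ran from -0.75 to -0.40, a range of 0.34. The median range over genes with 4 probe sets was 0.46, and 31.4% of these genes had a narrower range than PPP1CB. With the inhibitor they ran from 0.20 to 1.19, a range of 0.99 against a median of 0.41, and 98.4% of the 1383 genes had a narrower range. The 3 probe sets other than the brightest had median log2 ratios of -0.41 and 0.24. Among 42450 probe sets, the inhibitor ratio of 201407_s_at was the 3rd highest, and those of 201409_s_at, 201408_at and 228222_at ranked 1310, 4435 and 5847. Counted from the lowest overexpression ratio, the ranks of 201407_s_at and 201408_at were 224 and 326, and those of 228222_at and 201409_s_at were 2476 and 2633.

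**Figure D1:**
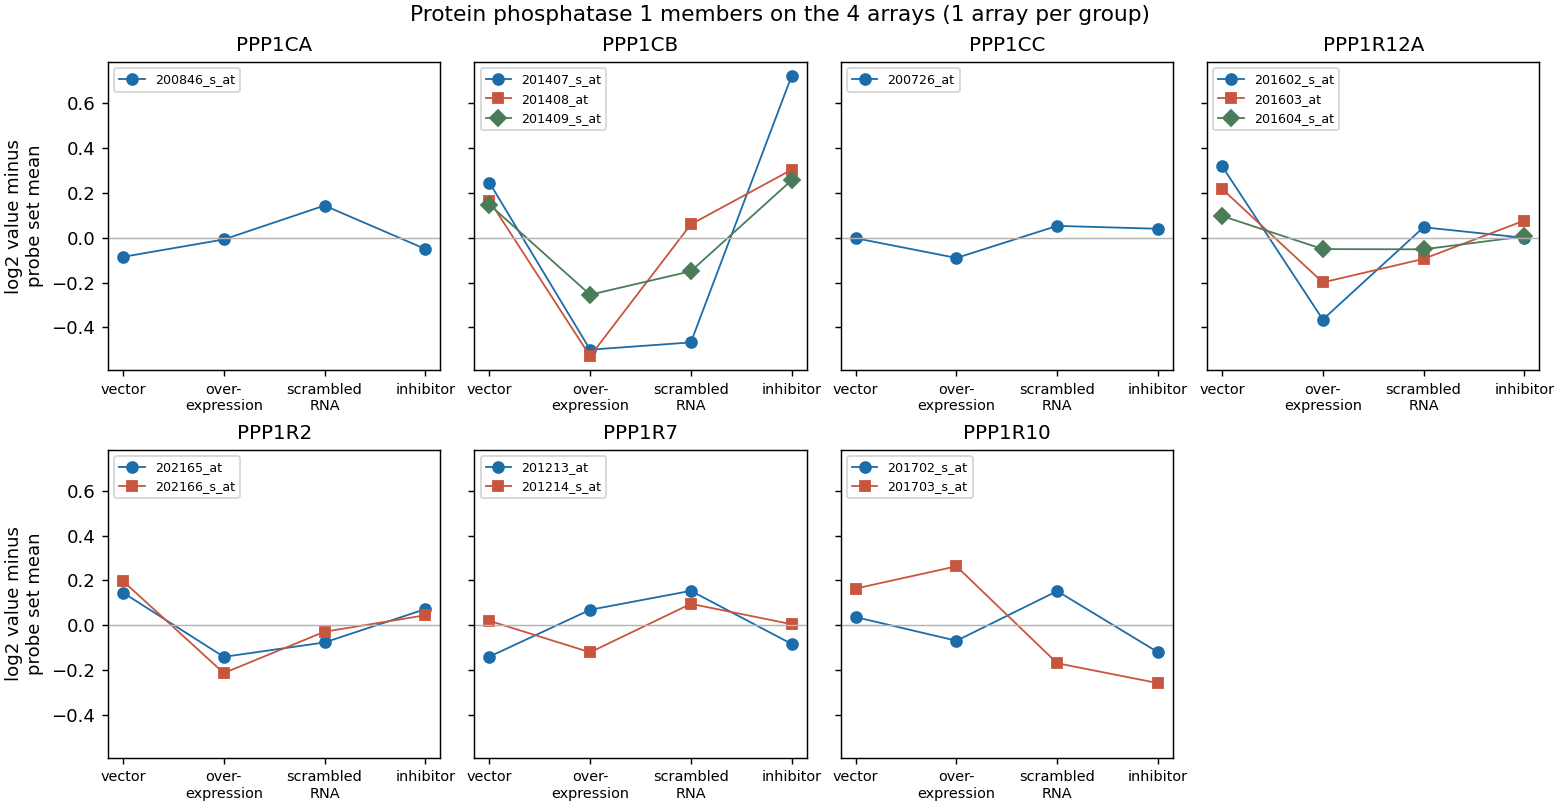
The log2 value of each member probe set minus its mean over the 4 arrays, with 1 point per array and 1 line per probe set, by gene. All 3 PPP1CB probe sets are lowest on the overexpression array and highest on the inhibitor array, and 201407_s_at is nearly as low on the scrambled RNA array (9.40) as with overexpression (9.37).

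The other catalytic subunits showed no such pattern. PPP1CA, the alpha subunit, is listed on chromosome 11 (67165657 to 67169288) and had values of 10.99 with vector, 11.07 with overexpression, 11.22 with scrambled RNA and 11.03 with the inhibitor. Its ratios were 1.06 and 0.874, on the opposite side of 1 from PPP1CB in both comparisons. The scrambled RNA array was its highest. PPP1CC, the gamma subunit, is listed on chromosome 12 (111157743 to 111180667) and varied least of all members with levels, by 0.14 over the 4 arrays. Its values were 11.86, 11.77, 11.91 and 11.90 with vector, overexpression, scrambled RNA and inhibitor. The ratios were 0.941 and 0.991, and after quantile normalization its overexpression difference turned from -0.09 to 0.01. Each of these genes has 1 probe set, so neither has a second reading.

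PPP1R12A, the myosin phosphatase targeting subunit, was lower with overexpression on all 3 of its probe sets and varied little with the inhibitor. The brightest, 201603_at, had values of 9.49 with vector, 9.07 with overexpression, 9.18 with scrambled RNA and 9.35 with the inhibitor, and ratios of 0.749 and 1.13. On 201602_s_at the values were 6.83, 6.14, 6.55 and 6.51, which gave the lowest ratio of the gene with overexpression, 0.622, and 0.968 with the inhibitor. The vector array was highest and the overexpression array lowest on both of these. On 201604_s_at they were 8.22, 8.07, 8.07 and 8.13, with ratios of 0.903 and 1.04, and here the overexpression and scrambled RNA arrays were level. The inhibitor difference of 201602_s_at turned from -0.05 to 0.01 after quantile normalization. The first 2 probe sets are listed over the same span of chromosome 12 (80167347 to 80328953), and the vector array was highest on all 3.

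PPP1R2, also called inhibitor-2, binds the catalytic subunits and blocks or refolds them. Its probe sets with levels were lower with overexpression, and those without were not. On 202166_s_at the values were 9.37 with vector, 8.96 with overexpression, 9.15 with scrambled RNA and 9.22 with the inhibitor, and on 202165_at they were 7.86, 7.58, 7.64 and 7.79. The ratios were 0.752 and 0.820 with overexpression and 1.05 and 1.11 with the inhibitor. Both probe sets are listed on chromosome 5 (from 156277305), although the band given for the gene is 3q29, and PPP1R2 is known to have near-identical processed copies elsewhere in the genome, so their assignment to PPP1R2 is uncertain. The probe sets listed on chromosome 3, 213774_s_at and 236754_at, had ratios of 1.12 and 1.06 with overexpression and of 0.983 and 0.948 with the inhibitor. Of these 213774_s_at is listed on the plus strand, although PPP1R2 lies on the minus strand, and which transcript it reads was not examined.

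On all 5 probe sets with levels of PPP1R12A and PPP1R2 the vector value was above the overexpression and the scrambled RNA value. The same held for PPP1CB. The share of all probe sets with this pattern was not counted, so it is not read as a shared trait. PPP1R12A and PPP1R2 differed from PPP1CB in that the inhibitor array stayed below the vector array, with differences from -0.32 to -0.07. These genes were set apart after their values were seen, and no test of the difference could be made with 1 array per group. Over the 11 probe sets with levels of members other than PPP1CB, the overexpression array was lowest on 6, the vector array highest on 5 and the scrambled RNA array highest on 5, against 34.9%, 30.6% and 25.2% of the 7736 probe sets above the median on all arrays. With the 3 of PPP1CB, chosen for a low overexpression value, the overexpression array was lowest on 9 of 14. The vector array was highest and the overexpression array lowest on 4 of the 11, against 10.8% of the 7736. These were 2 probe sets of PPP1R12A and the 2 of PPP1R2 whose assignment is uncertain.

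PPP1R7, also called SDS22, is a leucine-rich repeat protein that holds newly made catalytic subunits. Its probe set 201214_s_at had values of 9.12 with vector, 8.98 with overexpression, 9.20 with scrambled RNA and 9.11 with the inhibitor, with ratios of 0.907 and 0.939. On the dimmer 201213_at the values were 5.90, 6.11, 6.19 and 5.95, and its overexpression ratio of 1.16 lay on the other side of 1. The inhibitor ratio there was 0.849. The third, 213465_s_at, had ratios of 1.01 and 0.815. All 3 were below 1 with the inhibitor, where PPP1CB was above.

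The nuclear regulators were also on the low side with the inhibitor. PPP1R8, or NIPP1, is a nuclear inhibitor and scaffold linked to splicing, and its single probe set had ratios of 0.950 and 0.857. PPP1R10, or PNUTS, holds the phosphatase at chromatin and acts on RNA polymerase II. Its probe set 201703_s_at had values of 8.31 with vector, 8.41 with overexpression, 7.97 with scrambled RNA and 7.88 with the inhibitor. Both plasmid arrays were above both RNA arrays, by 0.43 on average, and the ratios within each pair were 1.07 and 0.940. On 201702_s_at the values were 6.55, 6.45, 6.67 and 6.40, which did not show that split, with ratios of 0.929 and 0.828. A plasmid and an RNA transfection differ in more than miR663a, so the size of 0.43 belongs to neither comparison of the design.

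The authors' score column sums the squared deviations of a probe set's 4 log2 values, so it also gives the size, without a sign, of the difference between the mean of the plasmid arrays and that of the RNA arrays. For the probe sets without levels this size was 0.34 for 228222_at of PPP1CB, 0.48 for 236754_at and 0.14 for 213774_s_at of PPP1R2, 0.06 for 213465_s_at of PPP1R7 and 0.05 for PPP1R8. For the PPP1CB probe sets with levels the RNA arrays were higher on average, by 0.11 for 201409_s_at, 0.25 for 201407_s_at and 0.36 for 201408_at. On 201408_at this was more than the inhibitor difference of 0.24. These averages include the overexpression and inhibitor arrays, by which PPP1CB was chosen. Between the controls alone the sign was opposite, with scrambled RNA minus vector at -0.30, -0.71 and -0.11 in the same order.

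Counted over probe sets, 3 of the 19 were at least 1.5-fold lower with overexpression and 0 higher by as much, where 1.76% and 1.77% of the 42450 probe sets were. They were 201407_s_at and 201408_at of PPP1CB and 201602_s_at of PPP1R12A, and those of PPP1CB were part of the choice of members. With the inhibitor 1 of 19 was at least 1.5-fold higher, the chosen 201407_s_at, and 0 at least 1.5-fold lower, where 0.737% and 0.714% of all probe sets were. Below a ratio of 1 were 13 of 19 with overexpression, against 52.6% of all probe sets, and 11 of 19 with the inhibitor, against 54.3%. Without PPP1CB these counts were 9 and 11 of 15. Lower with overexpression and higher with the inhibitor, at any size, were 8 of 19, namely 4 of PPP1CB, 2 of PPP1R12A and 2 of PPP1R2, against 28.0% of all probe sets. The 4 of PPP1CB meet this pattern by choice, and without them it held for 4 of 15 (26.7%), near the share of all probe sets. The median log2 ratio of these 15 was -0.09 with overexpression and -0.08 with the inhibitor, near the -0.02 of all probe sets in both comparisons.

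Counted over genes by the brightest probe set, PPP1CB was the 1 of 7 members at least 1.5-fold lower with overexpression, where 1.64% of 5504 genes above the array median were, and 0 were as much higher, against 0.927%. It was also the 1 of 7 that was 1.5-fold or more above scrambled RNA with the inhibitor, where 0.511% of 5482 genes were, and 0 were as much lower, against 0.237%. Below 0 were 5 of 7 with overexpression and 4 of 7 with the inhibitor, against 59.6% and 54.5% of genes above the array median. Without PPP1CB the count was 4 of 6 in both comparisons. The split of 1.5-fold calls among genes above the array median moves with scaling. With overexpression 90 genes were lower and 51 higher as deposited, 144 and 28 with centred arrays, 59 and 52 with quantile normalization and 20 and 4 when 64 was added to each linear signal. The 7 members had a median log2 ratio of -0.14 with overexpression and -0.01 with the inhibitor, beside -0.05 and -0.02 for all genes above the array median. Without PPP1CB the medians of the 6 were -0.11 and -0.05. By the median of its probe sets no gene of the 8 reached 1.5-fold in either comparison. PPP1CB came nearest, at log2 ratios of -0.55 (1.47-fold lower) and 0.32, followed by PPP1R12A at -0.42 with overexpression. Among 20227 genes taken this way, 0.702% reached 1.5-fold lower and 1.03% 1.5-fold higher with overexpression, and with the inhibitor 0.331% and 0.311% did.

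**Figure D2:**
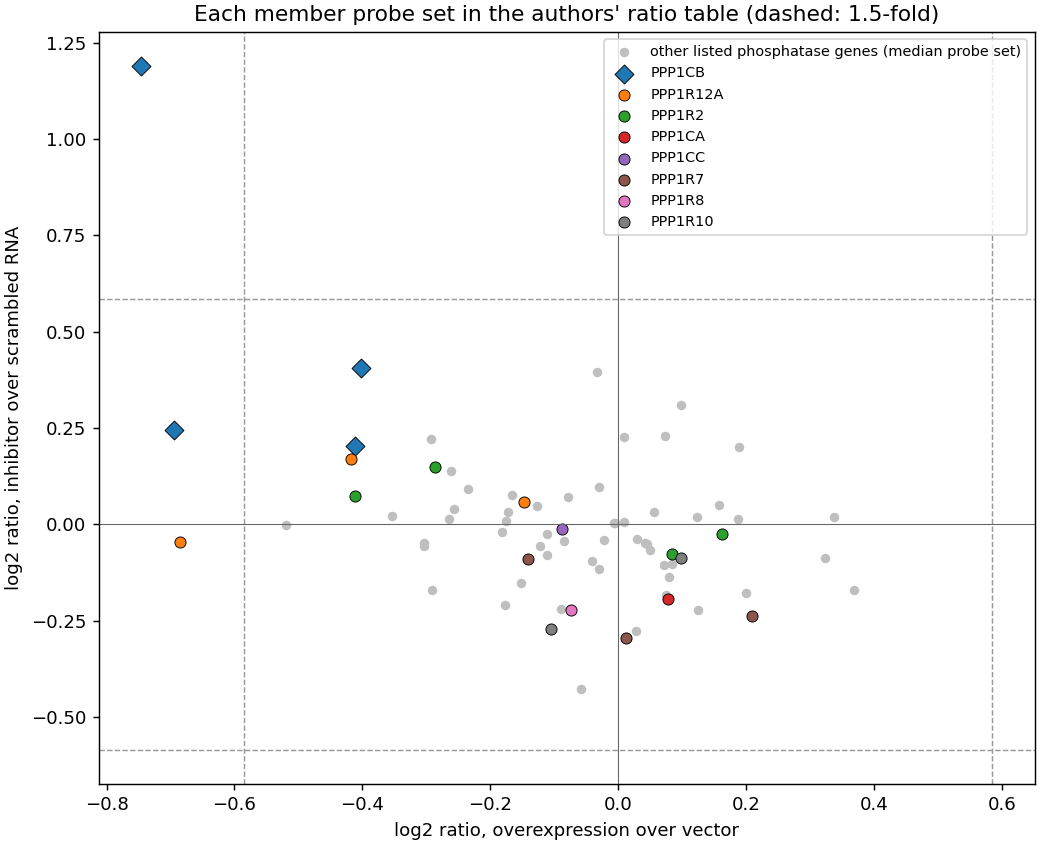
Log2 ratio of overexpression over vector (horizontal) against inhibitor over scrambled RNA (vertical) for the 19 member probe sets, coloured by gene, with the median probe set of 54 other phosphatase genes in grey and dashed lines at 1.5-fold. The 4 PPP1CB probe sets (diamonds) lie in the upper left, and 1 of them, at -0.75 and 1.19, lies past 1.5-fold in both comparisons.

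A chosen list of 57 further genes held other regulatory subunits of protein phosphatase 1 and catalytic subunits of its relatives. It is not a full set of either, and 54 of the genes had a ratio. By the median probe set 0 of these 54 reached 1.5-fold in either direction in either comparison. Their median log2 ratio was -0.03 with overexpression, where 31 of 54 were below 0 against 51.2% of all genes, and -0.02 with the inhibitor, where 29 of 54 were below 0 against 55.6%. Levels were measured for 24 of them, 20 of which lay above the median on all arrays. By the brightest probe set 1 of these 20 was at least 1.5-fold lower with overexpression, against 1.64% of genes above the array median, and 0 were as much higher, against 0.927%. With the inhibitor 0 of 20 were 1.5-fold lower or higher, against 0.237% and 0.511%. The 1 gene was KNL1, the kinetochore scaffold that docks the phosphatase. Below, genes with levels are given by their brightest probe set and the others by their median, and the median is added where it differs by over 1.5 times.

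KNL1 had values of 7.07 with vector, 6.40 with overexpression, 7.18 with scrambled RNA and 7.09 with the inhibitor. The overexpression array alone was low, by 1.60-fold against vector, and the inhibitor ratio was 0.941. The median of its 4 probe sets was smaller, at a log2 ratio of -0.18. With overexpression they ran from -0.68 to 0.22, on both sides of 0. Of the other nuclear and mitotic partners, CDCA2, which brings the phosphatase to chromosomes at mitotic exit, had median log2 ratios of -0.35 and 0.02, and RIF1, a regulator of replication timing, -0.09 and -0.22. By the median probe set 6 of these 7 genes were below 0 with overexpression, against 51.2% of all genes. With the inhibitor 4 were, against 55.6%.

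Among relatives of PPP1R12A, PPP1R12B had values of 6.15 with vector, 6.49 with overexpression, 6.49 with scrambled RNA and 6.15 with the inhibitor. This brightest of its 4 probe sets was at a log2 ratio of 0.35 with overexpression, opposite in sign to PPP1R12A, and at -0.34 with the inhibitor, the lowest of the 4. With the inhibitor they ran from -0.34 to 0.19 with a median of -0.09, and with overexpression the median was 0.32. PPP1R16B and PPP1R12C had ratios only, with log2 values of 0.01 and 0.12 with overexpression and of 0.23 and 0.02 with the inhibitor. The median of this subgroup of 4 was 0.07 with overexpression and -0.01 with the inhibitor.

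The SHOC2 complex joins a catalytic subunit to SHOC2 and the small GTPase MRAS and removes an inhibitory phosphate from RAF kinases. SHOC2 had values of 9.36 with vector, 9.06 with overexpression, 9.04 with scrambled RNA and 8.99 with the inhibitor. Its vector array stood above the other 3, which were nearly level. MRAS had values of 5.58, 5.55, 5.79 and 5.38, so that its largest difference was with the inhibitor, at a log2 ratio of -0.41. Its second probe set was on the other side of 0 with the inhibitor, at 0.11, and the medians of both were -0.15 with overexpression and -0.15 with the inhibitor.

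Among inhibitors, PPP1R1C was at a log2 ratio of 0.51 with overexpression, but its signal was dim, from 3.23 to 4.07, and its median ratios were 0.16 and 0.05. With overexpression and the inhibitor in turn, the log2 ratios of PPP1R1A were 0.21 and -0.02, with medians of 0.34 and 0.02, and those of PPP1R14C were -0.18 and -0.21. Of the glycogen targeting subunits, PPP1R3D was at -0.42 and 0.09 by its brightest probe set and at -0.26 and 0.14 by the median of its 2. PPP1R3B, whose signal crossed the array median, was at 0.46 and -0.25 by its brightest probe set and at 0.08 and -0.14 by the median of its 3, which ran from -0.04 to 0.46 with overexpression. PPP1R3F, with ratios only, was at 0.07 and 0.23. The eIF2 phosphatase subunit PPP1R15B was at -0.29 and 0.22, and its stress-inducible relative PPP1R15A at -0.02 and 0.0047, with medians of -0.0070 and 0.0026. PPP1R15A had values of 8.66 and 8.65 on the plasmid arrays and of 8.12 and 8.13 on the RNA arrays, flat within each pair and higher with plasmids.

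With overexpression and the inhibitor in turn, PHACTR1, which binds actin, was at 0.10 and 0.31, PHACTR3 at 0.12 and -0.22, and PPP1R18 at 0.20 and -0.18. PPP1R13B, a member of the ASPP family that binds p53, was at -0.03 and 0.39, PPP1R13L at 0.07 and -0.18, and TP53BP2 at -0.12 and -0.06. PPP1R36 was at -0.06 and -0.43, PPP1R21 at -0.39 and -0.09 (medians -0.29 and -0.17), and PPP1R27 at 0.37 and -0.17. Of the catalytic subunits of related phosphatases, 7 of 8 were below 0 with overexpression by the median probe set, against 51.2% of all genes. With the inhibitor 4 of 8 were, against 55.6%. PPP3CC, a calcineurin subunit, was lowest at -0.52 and -0.0025, PPP2CA, of protein phosphatase 2A, was at -0.30 and -0.06, and PPP4C was at 0.03 and -0.28.

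**Figure D3:**
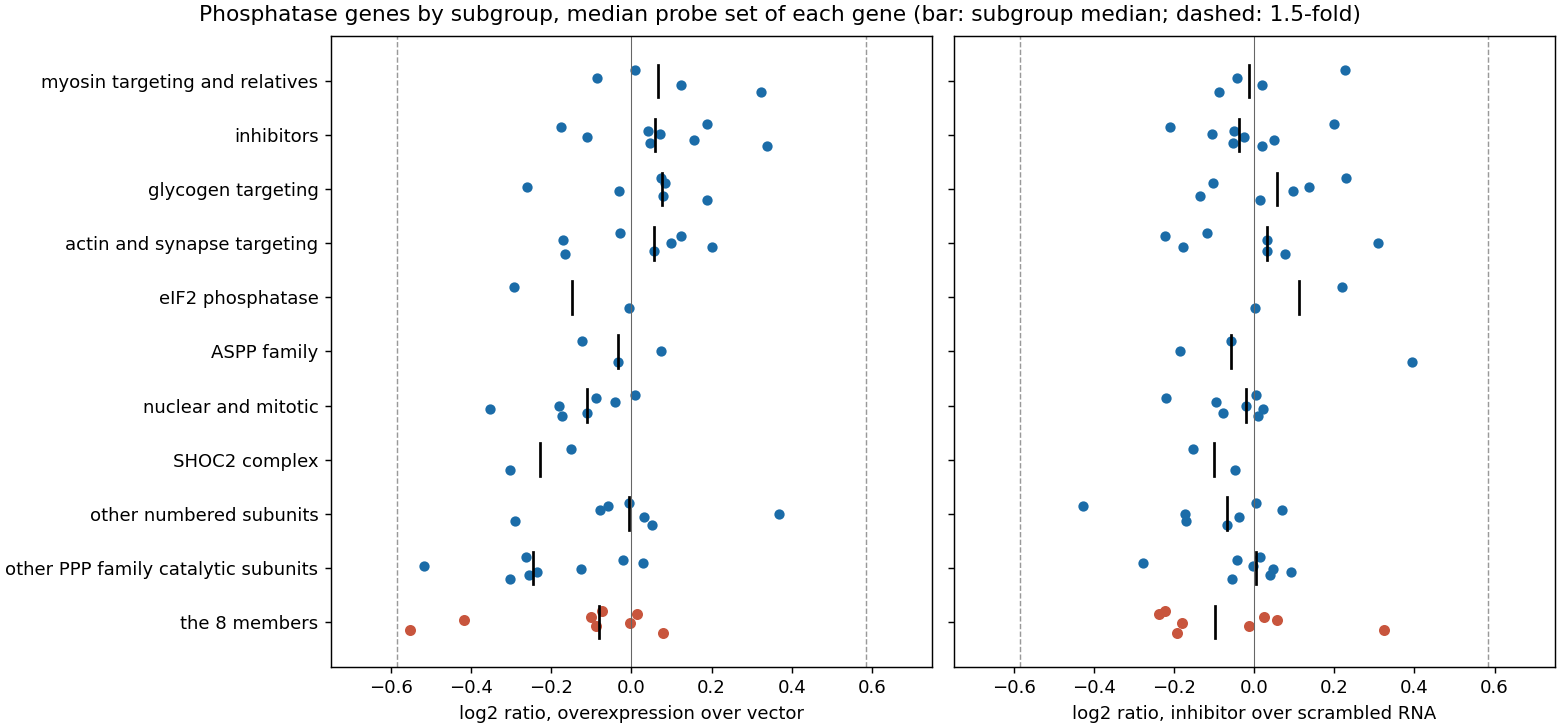
Log2 ratio of each phosphatase gene by its median probe set, with overexpression over vector at left and inhibitor over scrambled RNA at right, by subgroup. Bars are subgroup medians and dashed lines mark 1.5-fold. No gene passes a dashed line. Among the members the furthest points are -0.55 (left) and 0.32 (right), both PPP1CB. At right PPP1R36 (-0.43) and PPP1R13B (0.39), which are not members, lie further from 0.

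The genes most like the brightest PPP1CB probe set over the 4 arrays were found by the distance between log2 values, each centred on its own mean, among 5385 genes above the median on all arrays. The nearest 6 were RBL1, a relative of the retinoblastoma protein, at a distance of 0.16, ACSL4, an acyl-CoA ligase, at 0.25, TMEFF1, a transmembrane protein, at 0.34, MEIOC, a meiosis protein, at 0.34, CYP51A1, an enzyme of cholesterol synthesis, at 0.37 and DEFB124, a defensin, at 0.39. Their log2 ratios ran from -0.81 to -0.43 with overexpression and from 0.67 to 0.97 with the inhibitor. For all 6 scrambled RNA minus vector was negative, from -0.60 for RBL1 to -0.39 for DEFB124. The choice by distance to PPP1CB favours such values in all these differences, so they are a description only. The likeness rests on 4 arrays and on 1 probe set per gene. The other probe sets of 2 of the 6, TMEFF1 and DEFB124, had medians on the same side of 0 in both comparisons, while those of RBL1 were at -0.10 and -0.36, and those of ACSL4, MEIOC and CYP51A1 were also below 0 with the inhibitor.

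No other member was among these nearest genes. PPP1R12A ranked 447 of 5385 at a distance of 0.80. PPP1R2, by 202166_s_at of uncertain assignment, ranked 722 at 0.86. PPP1CC ranked 1887, PPP1R7 2276, PPP1CA 4109 and PPP1R10 4979.

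**Figure D4:**
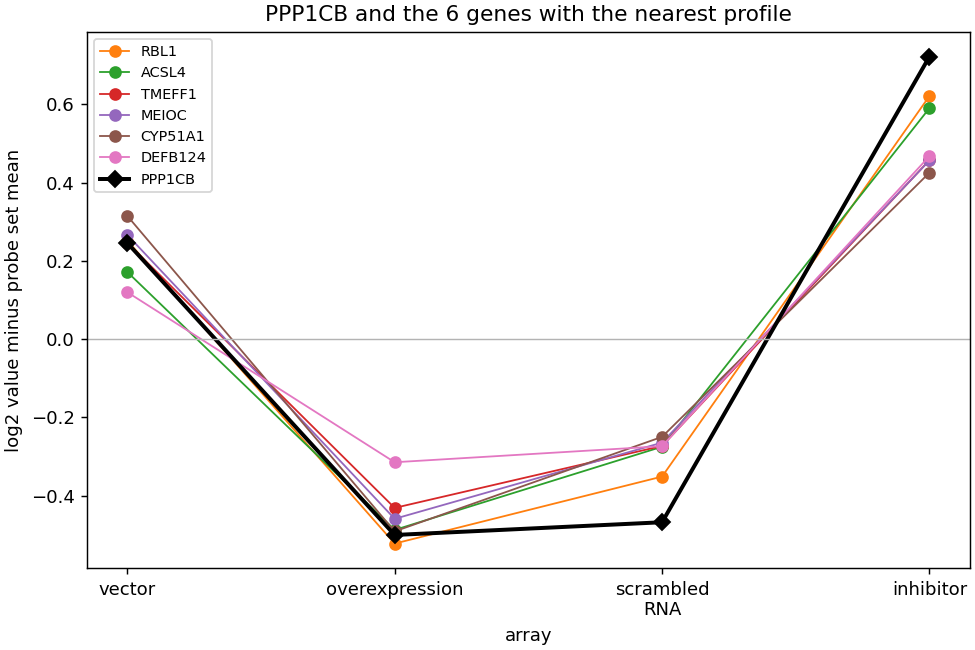
Log2 value minus the probe set's mean over the 4 arrays for PPP1CB (black) and the 6 genes with the nearest profile, with 1 point per array. All 7 are low on the overexpression and scrambled RNA arrays and highest on the inhibitor array, and PPP1CB has the lowest scrambled RNA point.

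Promoters of PPP1CB and PPP1R12A are shown because these partners of 1 enzyme were lower with overexpression on all their probe sets. Each is the first RefSeq window of the gene in GRCh38.p14, the 250 bases before an annotated start, read 5′ to 3′. PPP1CB lies at chr2:28751354-28751603 on the plus strand and PPP1R12A at chr12:79934952-79935201 on the minus strand. Capitals mark the GC box GGGCGG and the CCAAT box CCAAT on either strand.
PPP1CB: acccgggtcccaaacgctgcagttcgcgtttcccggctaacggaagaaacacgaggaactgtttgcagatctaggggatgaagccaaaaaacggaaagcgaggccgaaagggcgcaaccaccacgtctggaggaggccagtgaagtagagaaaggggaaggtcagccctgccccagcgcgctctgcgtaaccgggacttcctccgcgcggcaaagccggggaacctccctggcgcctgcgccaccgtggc
PPP1R12A: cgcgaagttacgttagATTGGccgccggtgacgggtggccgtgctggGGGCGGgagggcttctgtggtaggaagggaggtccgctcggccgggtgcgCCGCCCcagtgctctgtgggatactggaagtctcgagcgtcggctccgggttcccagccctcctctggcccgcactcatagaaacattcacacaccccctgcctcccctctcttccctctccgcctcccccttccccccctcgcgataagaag
The PPP1CB window held 0 GC boxes and 0 CCAAT boxes, and so did its second window. The PPP1R12A window held 2 GC boxes and 1 CCAAT box. Its further windows, not shown, held 1 and 1, 3 and 1, and 0 and 0 of them. Of 35116 such windows, 42.6% held a GC box and 32.0% a CCAAT box. The TATA box TATAAA, in 10.7% of all windows, and the element TGACGTCA, in 1.65%, were in neither of the windows shown. Letters that match are no measurement of a factor's binding. No 3′ untranslated region was searched for the seed of miR-663a.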

How the data were processed

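HCT116 RNA was measured on 1 array for each of 4 groups. The authors deposited log2 signals of 16381 probe sets in a value table. A second table deposited by the authors holds linear ratios for 42450 probe sets and a score column. The submitters' processing notes name MAS5. How background and normalization were handled, and the genome build, are not stated there. On 12704 probe sets in both tables, log2 of each deposited ratio matched the difference between arrays within 9.87e-05, and the deposited score matched the sum of squares within 0.000107.

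Probe sets were named through RefSeq (GRCh38.p14), by accession for 38798, by current symbol for 610 and by older symbol for 339. The file's symbol was kept for 1697, and 1006 that named several genes were left out of gene counts. A gene's level is that of its probe set with the highest mean. Genes counted by level lay above the array median on both arrays, and counts from the ratio table had no filter on dim signal. The threshold was 1.5-fold, with 2-fold and a log2 ratio of 0.322 as alternatives. No pseudocount was used, except in the alternative that adds an offset of 64. Members with levels all passed the filter.

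Members and lists were chosen with earlier results of these data known. Named were all members, up to 3 genes per subgroup by the largest log2 ratio and the 6 genes nearest to PPP1CB. The calculation was tested on simulated data with low noise and large planted changes, which checks the code and not the values reported here. Software was numpy 2.4.6, matplotlib 3.10.9 and pandas 2.3.3 under Python 3.11.15.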

Additional observations from a re-analysis of the deposited data

How the results depend on the processing

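The PPP1CB difference with overexpression stayed between -0.82 and -0.55 on the log2 scale in all 5 alternatives. Its inhibitor difference of 1.19 was 0.61 with the mean of its probe sets with levels, 0.32 with the median probe set of the authors' ratio table and -1.19 with the RNA arrays exchanged as their titles read. The members' median of -0.14 with overexpression was -0.21 after centring each array, -0.00098 after quantile normalization, -0.088 when each gene's probe sets were averaged and -0.081 with the ratio table. Their median of -0.013 with the inhibitor was -0.038 after quantile normalization, -0.097 with the ratio table and 0.013 with the RNA arrays exchanged. The count of 1 member at least 1.5-fold lower with overexpression was 0 with the ratio table, 0 at 2-fold and 3 at a log2 ratio of 0.322. The 3 were the chosen PPP1CB, PPP1R12A at -0.42 and PPP1R2 at -0.41, the last by a probe set of uncertain assignment. The share of all genes past 0.322 is not given here. Over genes above the array median the standard deviation of this log2 ratio was 0.24. The count of 1 at least 1.5-fold higher with the inhibitor was 0 with the ratio table and 0 with the RNA arrays exchanged. The cause was not tested. No paired analysis was possible because each group has 1 array.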
